A study of Homo sapiens with 4 samples.

Results

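Integrins are cell surface receptors built from 1 alpha and 1 beta chain, and collagens and laminins are the matrix proteins that many of them bind. Transcripts of these 3 families were followed in Meg-01, an established human megakaryoblastic cell line, after stable knockdown of the transcription factor GATA1. Members were taken by array gene name: ITGA or ITGB followed by a number or letter, COL with a type and a chain number, and LAMA, LAMB or LAMC with a number. ITGA2B and ITGB3, the platelet fibrinogen receptor, and the ITGB1BP and ITGB3BP genes were left out by this rule. It took 78 of 30484 array names and 125 of 40974 probes, counting those that every array had measured. Integrins supplied 26 genes with 40 probes, collagens 40 genes with 65 probes and laminins 12 genes with 20 probes. ITGBL1, a secreted protein with integrin-like repeats, and ITGB4BP, a ribosome factor now named EIF6, carry the prefix but are not integrin chains.

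The knockdown cells were 2 clones, GATA1 5-13 and GATA1 4-14, each grown from a single soft-agar colony after lentiviral infection with a GATA1 shRNA and puromycin selection. The control, GATA1 Neg, was a pool of Meg-01 cells infected with a lentivirus whose shRNA has little homology to human genes, so both sides carried a vector but a clone was compared with a pool. The extraction text of the labels names clones of CMK, another megakaryoblastic line, whereas every other label names Meg-01. Each of 4 two-colour Agilent arrays on 1 slide held 1 clone against GATA1 Neg, with the dyes exchanged between the first and the second array of each clone. Values are log2 ratios of knockdown over GATA1 Neg, so a negative value means less signal in the clone than in the control. The 2 arrays of a clone were averaged, so n = 2 clones, and limma tested their mean against 0 with Benjamini-Hochberg adjustment over all 40974 probes. GATA1 Neg RNA was on every array, so its own spread does not enter the test, and a ratio of 1 clone alone has no test.

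GATA1 itself (A_24_P374244) had log2 ratios of -0.21 and -0.34 in GATA1 5-13 and of -0.43 and -0.58 in GATA1 4-14. The average over the clones was -0.39 ± 0.16 (SD, n = 2), with an adjusted p of 0.603 (limma, Benjamini-Hochberg). The authors chose both clones for lower GATA1 by real-time RT-PCR and Western blotting, measures other than this array probe. Between 60.7% and 65.6% of all probes were well above background in an RNA on an array. Of the 12 megakaryocyte markers, 8 were well above background in GATA1 Neg on all 4 arrays, and PF4, SELP and VWF were above it in neither RNA. Of the 19 marker probes, 7 were below 0 on all 4 arrays and 0 above 0, beside 13.4% and 12.8% of all probes. Both ITGA2B probes were above background, with mean log2 ratios of -0.29 ± 0.14 and -0.30 ± 0.17 (SD, n = 2 clones). ITGB3, its partner chain, did not share this ratio: its 3 probes had clone means of -0.14, -0.22 and -0.01 in GATA1 5-13 and of 0.18, 0.13 and 0.29 in GATA1 4-14.

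Integrin chains pair in fixed combinations, and the partner decides the ligand. The beta 2 chain pairs with the leukocyte alpha chains of the ITGAL, ITGAM, ITGAX and ITGAD genes, the beta 7 chain pairs with alpha 4 or alpha E, and the beta 1 chain has the most partners, among them alpha 2, which binds collagen, and alpha 6, which binds laminin. Laminins are trimers of an alpha, a beta and a gamma chain that assemble in basement membranes together with the type IV collagen network. Megakaryocytes mature and shed platelets in contact with such matrix in the marrow, and collagen is a strong activator of platelets.

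ITGAM and ITGB7 were the only members that were lower at the unadjusted p of 0.005, so the 250 bases before their RefSeq starts are shown (GRCh38.p14, strand of the gene, 5′ to 3′). Capitals mark the letters TGATAG and its variants with A as the first or last letter, read on either strand, which is the core that GATA factors are known to prefer. The ITGAM window is chr16:31259725-31259974 on the plus strand and holds 1 match, which begins 35 bases before the start. The ITGB7 window is chr12:53207252-53207501 on the minus strand and holds 2 matches of the complement, which begin 225 and 98 bases before the start.
ITGAM: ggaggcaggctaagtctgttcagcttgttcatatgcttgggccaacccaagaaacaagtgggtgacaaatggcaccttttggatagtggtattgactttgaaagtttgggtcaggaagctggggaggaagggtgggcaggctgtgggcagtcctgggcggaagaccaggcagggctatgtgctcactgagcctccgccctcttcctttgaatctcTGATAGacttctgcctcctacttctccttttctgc
ITGB7: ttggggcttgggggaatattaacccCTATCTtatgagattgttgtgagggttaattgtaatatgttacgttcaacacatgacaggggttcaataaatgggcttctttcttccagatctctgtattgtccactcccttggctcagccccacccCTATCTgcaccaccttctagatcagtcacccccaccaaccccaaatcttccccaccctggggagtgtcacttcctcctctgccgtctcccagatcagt
Such letters stood in 7840 of the 35116 windows of this length in the RefSeq table, which is 22.3%. RefSeq windows were matched for 56 of the 78 member genes, and 10 of these, 17.9%, held a match in at least 1 window, against 26.2% of all 27305 genes. Integrins held one in 5 of 18 genes, collagens in 4 of 29 and laminins in 1 of 9. The other member genes with a match were ITGA6, ITGAV, ITGB1, COL17A1, COL19A1, COL21A1, COL25A1 and LAMA4. A match is a run of letters and not a measured site.

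No member probe passed the adjusted threshold of 0.05, and 0% of all probes on the array passed it. With the 4 arrays as 4 values and the replicate number, which is the dye orientation, as a block, 269 probes passed, among them 3 members: ITGAM and ITGB7 (adjusted p of 0.023 each) and ITGBL1 (0.0334, limma with Benjamini-Hochberg). That fit counts the arrays of a clone as separate samples. At an unadjusted p of at most 0.005, which 0.574% of all probes reached in the lower direction and 0.327% in the higher, 2 of the 125 member probes were lower (ITGAM and ITGB7) and 2 were higher (ITGBL1 and LAMB1). At an unadjusted p under 0.05 the members counted 7 lower, 5.6% of them beside 4.05% of all probes, and 5 higher, 4% beside 3.39%. In GATA1 5-13, 4 member probes were at least 1.5-fold lower on both arrays, 3.2% beside 2.01% of all probes, and LAMA2 alone was at least 1.5-fold higher, 0.8% beside 1.39%. In GATA1 4-14, 4 member probes were at least 1.5-fold lower on both arrays, 3.2% beside 0.696%, and 2 were at least 1.5-fold higher, 1.6% beside 0.832%. The 4 lower probes were the same in both clones and came from ITGAM, ITGB7, COL23A1 and LAMA3. Each clone was set against the same GATA1 Neg RNA, so a probe that is off in that RNA moves both. Of the members, 14 probes were below 0 on all 4 arrays, 11.2% beside 13.4% of all probes, and 14 were above 0 on all 4, 11.2% beside 12.8%. These shares of 1 sign lay under those of the whole array.

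**Figure D1:**
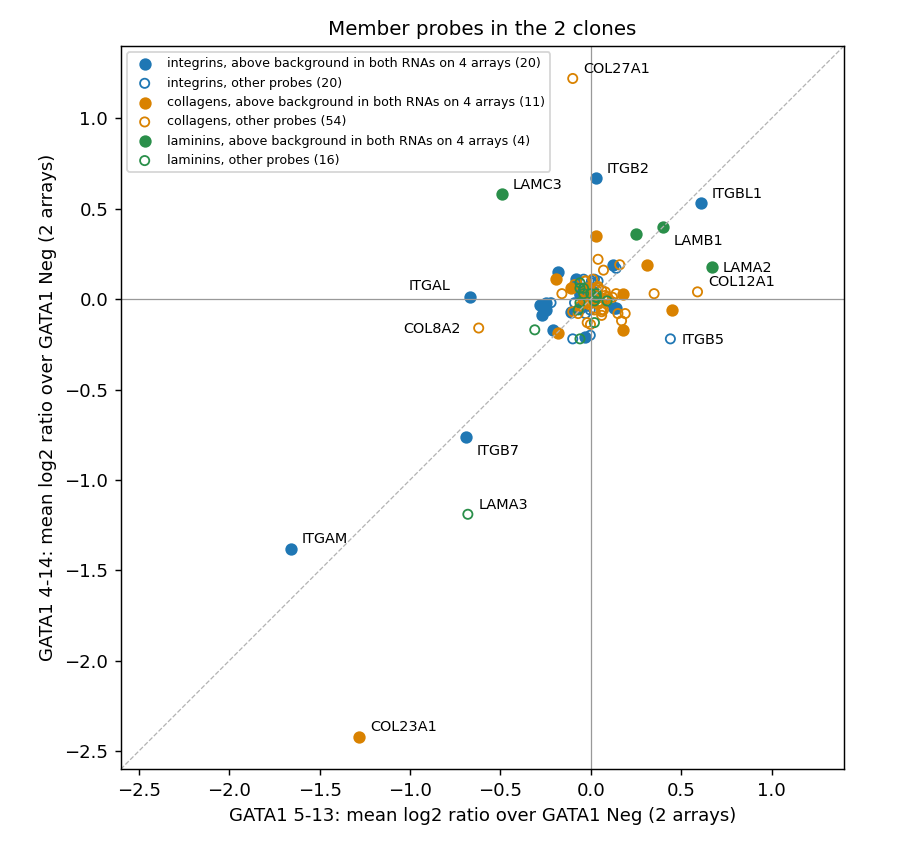
Mean log2 ratio over GATA1 Neg of each of the 125 member probes in GATA1 5-13 (horizontal axis) and GATA1 4-14 (vertical axis), with 1 point per probe, filled where both RNAs were well above background on all 4 arrays. ITGAM, ITGB7, COL23A1 and LAMA3 lie low in both clones, ITGBL1 and LAMB1 lie high in both, and LAMC3 lies above 0 in GATA1 4-14 and below it in GATA1 5-13.

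Among the integrins, ITGAM stood farthest from the control. It codes for the alpha M chain (CD11b) of the complement receptor of myeloid cells, and its probe A_23_P124108 (chr16:31251317-31251376 of hg18, plus strand) had log2 ratios of -1.64 and -1.69 in GATA1 5-13 and of -1.32 and -1.44 in GATA1 4-14. All 4 arrays were below 0 by more than 1 log2 unit, and the arrays of a clone lay closer to each other than to those of the other clone. This left 31.5% and 38.5% of the GATA1 Neg signal, and the mean log2 ratio was -1.52 ± 0.20 (SD, n = 2 clones) with an unadjusted p of 0.000518 and an adjusted p of 0.399 (limma, Benjamini-Hochberg).

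ITGB7 codes for the beta 7 chain, which guides lymphocytes to the gut as alpha 4 beta 7. Its probe A_23_P76529 (chr12:51871424-51871483 of hg18, minus strand) had log2 ratios of -0.63 and -0.76 in GATA1 5-13 and of -0.74 and -0.78 in GATA1 4-14. The 4 values lay within a narrow range, and the signal was 62% and 59.2% of that of GATA1 Neg. The mean log2 ratio was -0.72 ± 0.05 (SD, n = 2 clones), with an unadjusted p of 0.000933 and an adjusted p of 0.403 (limma, Benjamini-Hochberg). It was -0.40 without background correction, and of the alternatives tried this was the only one that moved it by over 1.5 times.

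The partners of these chains did not share their ratios. ITGB2, the beta chain that pairs with alpha M, had log2 ratios of -0.04 and 0.09 in GATA1 5-13 and of 0.59 and 0.75 in GATA1 4-14, so it was at the control level in the first clone and 1.5-fold or more above it in the second. The mean log2 ratio of ITGB2 was 0.35 ± 0.45 (SD, n = 2 clones), an SD larger than the mean. ITGAL, the alpha chain of the lymphocyte receptor for ICAM1, was below the control in GATA1 5-13 and on either side of it in GATA1 4-14. Its brighter probe A_23_P206806 had log2 ratios of -0.52 and -0.82 in GATA1 5-13 and of 0.14 and -0.11 in GATA1 4-14. ITGB2 and this ITGAL probe were thus both lower in GATA1 5-13 than in GATA1 4-14. ITGAX and ITGAD, the other alpha chains that join beta 2, were well above background in neither RNA on any array. For beta 7, ITGA4 (alpha 4, the receptor chain for VCAM1) had log2 ratios of -0.20, -0.29, 0.03 and -0.07, and ITGAE (alpha E, which binds E-cadherin) of -0.07, 0.05, -0.01 and 0.13, both in the order of GATA1 5-13 and then GATA1 4-14. Only GATA1 5-13 had ITGA4 below 0 on both arrays.

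Because ITGAM is also a gene of monocytes, the monocyte markers were read beside it. Of 5 such genes with 6 probes, 0 probes reached the unadjusted p of 0.005, and CSF1R and ITGAX (itself a member) were well above background in neither RNA on any array. The median log2 ratio of the 6 probes was -0.04 in GATA1 5-13 and 0.09 in GATA1 4-14. CD68 was the only 1 of them above background in both RNAs on all arrays, and its log2 ratios were -0.27 and -0.25 in GATA1 5-13 and -0.16 and -0.11 in GATA1 4-14, all below 0. LYZ, the lysozyme of myeloid cells, had log2 ratios of 0.43 and 0.27 in GATA1 4-14 and was above background in GATA1 Neg only in GATA1 5-13, where it was at least 1.51-fold lower. The part of these markers in the ITGAM result was not tested.

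The widely used beta 1 chain lay slightly below the control. Its probe A_23_P104193 had log2 ratios of -0.33, -0.21, -0.13 and -0.05, which averaged -0.18 ± 0.12 (SD, n = 2 clones), with an adjusted p of 0.69 (limma, Benjamini-Hochberg). Another 3 probes named ITGB1 had mean log2 ratios of -0.16, -0.15 and -0.06, but 1 of them, A_24_P598836, is placed by the array file on a different chromosome from the rest. The collagen-binding alpha 2 chain ITGA2 was measured by 4 probes, of which A_32_P208076 was below 0 on all 4 arrays, at -0.19, -0.24, -0.21 and -0.12. The other ITGA2 probes had mean log2 ratios from -0.12 to 0.02, and the highest of these came from the probe that was above background in neither RNA. The remaining collagen receptor chains ITGA1, ITGA10 and ITGA11 were above background nowhere.

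Of the laminin-binding chains, ITGA6, which forms receptors with beta 1 or beta 4, had log2 ratios of -0.21 and -0.16 in GATA1 5-13 and of 0.13 and 0.18 in GATA1 4-14, so the clones lay on opposite sides of 0. ITGB4, its hemidesmosome partner, had log2 ratios of -0.14, -0.08, -0.09 and -0.05, all below 0 but small. ITGA3 was above background nowhere. The chains that read the RGD motif of fibronectin and vitronectin lay close to the control: ITGA5, the fibronectin receptor chain, had log2 ratios of 0.12, 0.11, 0.20 and 0.18, and the mean log2 ratios of the 2 ITGAV probes were 0.04 ± 0.12 and 0.05 ± 0.13 (SD, n = 2 clones). ITGB5, the partner of alpha V in a vitronectin receptor, had log2 ratios of 0.45 and 0.43 in GATA1 5-13. In GATA1 4-14 the ITGB5 probe was well above background in neither RNA, and its values there, -0.18 and -0.27, carry no fold. The probe A_23_P252193 of ITGA9, a chain that binds tenascin and VCAM1, had log2 ratios of -0.08, -0.12, -0.22 and -0.22.

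ITGBL1 lay above the control in both clones by similar amounts. Probe A_23_P113777 (chr13:101165980-101166039 of hg18, plus strand) had log2 ratios of 0.66 and 0.55 in GATA1 5-13 and of 0.54 and 0.53 in GATA1 4-14, or 152% and 145% of GATA1 Neg. These averaged 0.57 ± 0.05 on the log2 scale (SD, n = 2 clones), with an unadjusted p of 0.00201 and an adjusted p of 0.47 (limma, Benjamini-Hochberg).

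**Figure D2:**
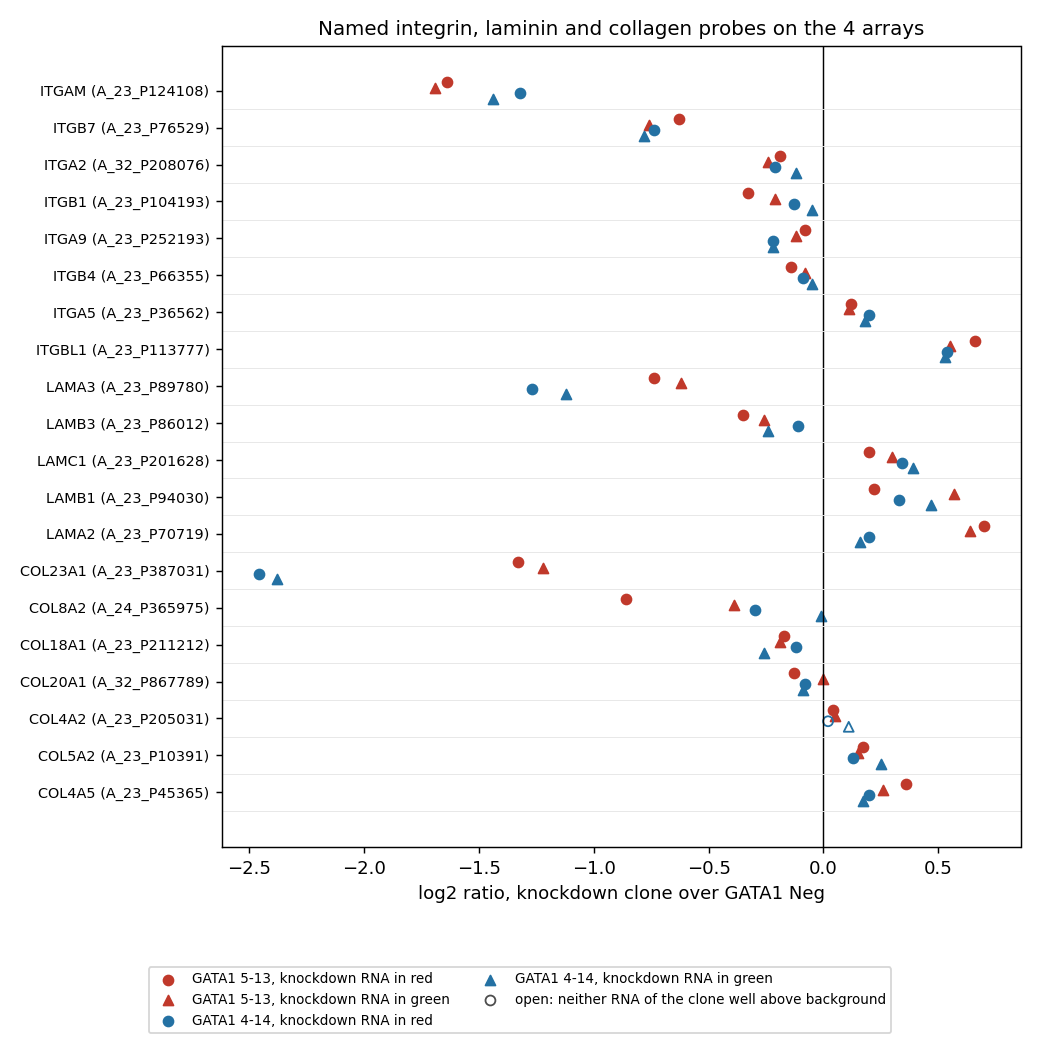
Log2 ratio of knockdown clone over GATA1 Neg (horizontal axis) on each of the 4 arrays for the 20 probes chosen by the naming rule, with circles for the knockdown RNA in red and triangles for green. The 4 arrays of ITGAM, ITGB7 and ITGBL1 lie close together and away from 0, whereas the clones stand apart for COL23A1, LAMA2 and LAMA3.

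The laminin chains are grouped here by the trimers they form. LAMB1 and LAMC1, the beta 1 and gamma 1 chains found in most basement membrane laminins, were above 0 on all 4 arrays. LAMB1 (A_23_P94030, chr7:107351647-107351706 of hg18, minus strand) had log2 ratios of 0.22 and 0.57 in GATA1 5-13 and of 0.33 and 0.47 in GATA1 4-14. Within each clone it was higher on the array where red held the control, and the difference between the arrays of GATA1 5-13 was larger than that between the clone means. The mean log2 ratio of LAMB1 was 0.40 ± 0.001 (SD, n = 2 clones), with an unadjusted p of 0.0047 and an adjusted p of 0.546 (limma, Benjamini-Hochberg). Without the first array of GATA1 5-13 its mean log2 ratio was 0.48, and without the second it was 0.31.

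LAMC1 had log2 ratios of 0.20, 0.30, 0.34 and 0.39, which averaged 0.30 ± 0.08 (SD, n = 2 clones). LAMA2, the alpha 2 chain that joins beta 1 and gamma 1 in the laminin of muscle and nerve, had log2 ratios of 0.70 and 0.64 in GATA1 5-13 and of 0.20 and 0.16 in GATA1 4-14. Both arrays of the first clone were thus at least 1.5-fold above GATA1 Neg and neither of the second was. The adjusted p was 0.595 for LAMC1 and 0.681 for LAMA2 (limma, Benjamini-Hochberg).

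Chains of the epithelial anchoring laminin lay below the control. LAMA3, its alpha 3 chain, had log2 ratios of -0.74 and -0.62 in GATA1 5-13 and of -1.27 and -1.12 in GATA1 4-14 with probe A_23_P89780 (chr18:19788733-19788792 of hg18, plus strand). On both arrays of GATA1 4-14 the clone's RNA was too dim to be called well above background, which bounds it as at least 2.18-fold lower than GATA1 Neg, a bound against the dimmest signal called well above background. The mean log2 ratio of LAMA3 was -0.94 ± 0.36 (SD, n = 2 clones), with an unadjusted p of 0.00844 and an adjusted p of 0.561 (limma, Benjamini-Hochberg). It was -0.34 without background correction and -1.71 with the log ratios of the scanner program, so its size moved with the treatment of background. The other 2 LAMA3 probes were above background in neither RNA. LAMB3, the beta 3 chain of the same trimer, had log2 ratios of -0.35, -0.26, -0.11 and -0.24. Its mean of -0.24 was -0.07 without background correction and -0.50 in the series-wide table of ratios.

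Markers of epithelial cells were read beside these chains. KRT18, a keratin of simple epithelia, had 3 probes above background in both RNAs on all arrays, with clone means of -2.19, -1.90 and -2.14 in GATA1 5-13 and of -0.23, -0.17 and -0.20 in GATA1 4-14. KRT8, its partner keratin, had clone means of -0.07 and 0.00 with the probe that was above background, and TACSTD1, the epithelial adhesion molecule now named EPCAM, had 0.05 and 0.05. KRT18 was thus lowest in GATA1 5-13 and LAMA3 in GATA1 4-14. CDH1 was above background nowhere. Of the 9 probes of the list, 4 were below 0 on all 4 arrays, beside 13.4% of all probes. They were the 3 KRT18 probes given here and the dim CDH1 probe. The part of these markers in the values of LAMA3 and LAMB3 was not tested.

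LAMC3, the gamma 3 chain of nerve and retina laminins, had log2 ratios of -0.37 and -0.61 in GATA1 5-13 and of 0.66 and 0.50 in GATA1 4-14. The clones thus differed in direction on every array, with 71.2% of the GATA1 Neg signal in one and 150% in the other. LAMA4, LAMA5, LAMB2 and LAMB4 were above background in neither RNA on any array.

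**Figure D3:**
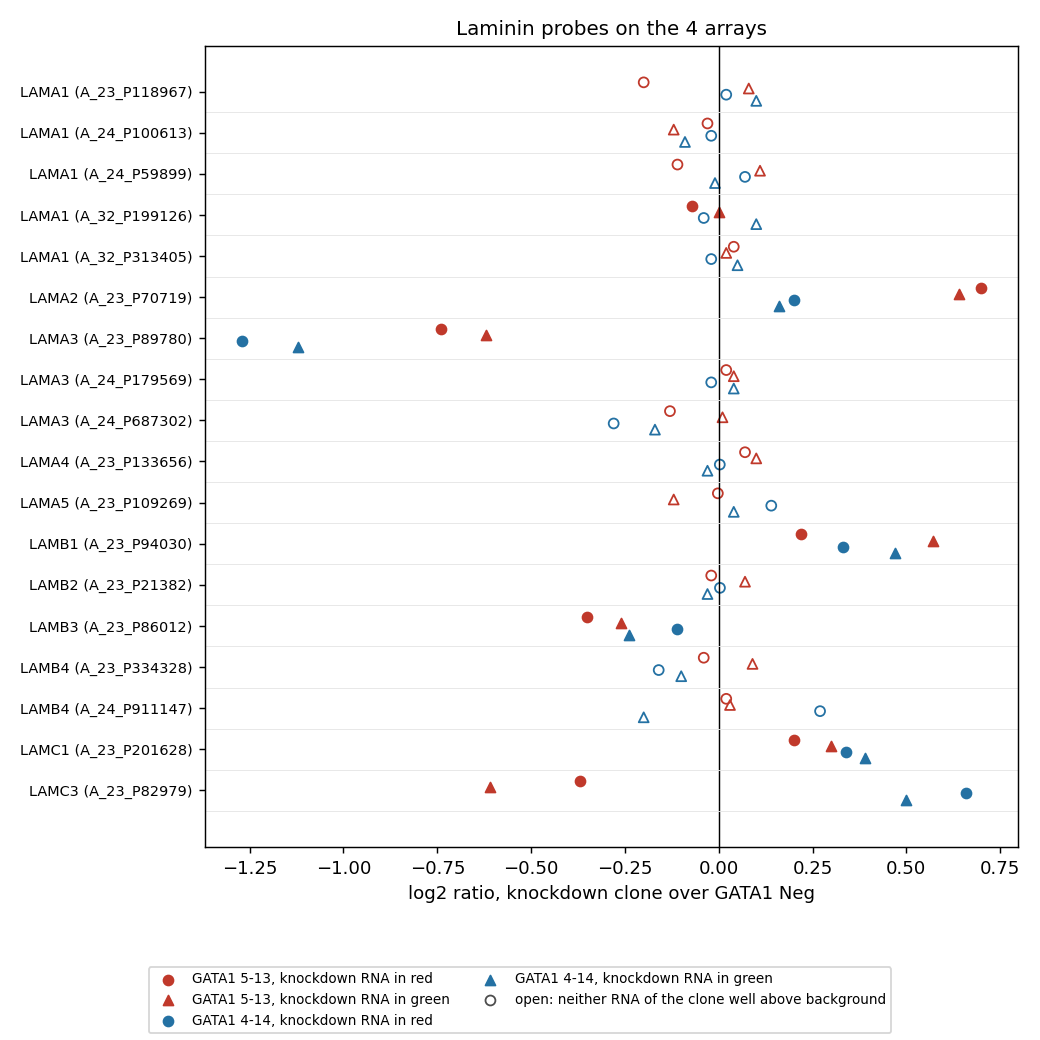
Log2 ratio of knockdown clone over GATA1 Neg (horizontal axis) on each of the 4 arrays for the laminin probes reported here, ordered by alpha, beta and gamma chain, with open symbols where neither RNA of the clone was well above background. LAMA2, LAMB1 and LAMC1 lie right of 0 on all 4 arrays, LAMB3 and 1 LAMA3 probe lie left of it, LAMC3 is split by clone, and most open symbols lie near 0.

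Among the collagens, COL23A1 lay lowest. It codes for a transmembrane collagen, and probe A_23_P387031 (chr5:177597411-177597470 of hg18, minus strand) had log2 ratios of -1.33 and -1.22 in GATA1 5-13 and of -2.46 and -2.38 in GATA1 4-14. Both clones were well below the control, at 41.3% and 18.6% of its signal, and both RNAs were above background on all 4 arrays. The mean log2 ratio was -1.85 ± 0.81 (SD, n = 2 clones), with an unadjusted p of 0.0107 and an adjusted p of 0.573 (limma, Benjamini-Hochberg). The clones differed from each other by more than the 2 arrays of either clone did. The other 7 probes of transmembrane collagens had clone means between -0.04 and 0.04, and of them only the COL17A1 probe A_23_P501010 was above background, on 1 array of GATA1 5-13 in each RNA.

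COL8A2, a network-forming collagen of the corneal basement membrane, had log2 ratios of -0.86 and -0.39 in GATA1 5-13 and of -0.30 and -0.01 in GATA1 4-14, with an average of -0.39 ± 0.33 (SD, n = 2 clones). That average was -0.96 with the scanner ratios, -0.65 with their error-weighted mean and -0.12 without background correction, and its adjusted p ranged from 0.00377 with the error-weighted mean to 0.783 with the scanner ratios (limma or the weighted mean, Benjamini-Hochberg). COL18A1, the source of endostatin, had log2 ratios of -0.17, -0.19, -0.12 and -0.26 with its probe above background, and its mean of -0.18 ± 0.01 (SD, n = 2 clones) was 88.5% and 87.8% of GATA1 Neg in the 2 clones. The COL20A1 probe A_32_P867789 was below 0 on all 4 arrays, with a mean log2 ratio of -0.07.

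Several collagens lay above the control at low ratios. COL4A5, the alpha 5 chain of type IV collagen, had log2 ratios of 0.36, 0.26, 0.20 and 0.17 with probe A_23_P45365 (chrX:107827236-107827295 of hg18, plus strand), and 0.09 and 0.01 as mean log2 ratios of its other 2 probes. The mean of the first probe was 0.25 ± 0.09 (SD, n = 2 clones) with an adjusted p of 0.633 (limma, Benjamini-Hochberg). COL4A6 has 2 RefSeq starts, of which the nearer lies 380 bases from that of COL4A5 on the opposite strand. In GATA1 5-13 COL4A6 had log2 ratios of 0.43 and 0.47, but in GATA1 4-14 they were -0.06 and -0.05. The 2 genes were therefore alike in the first clone only. COL4A2, which starts 127 bases from COL4A1, had a mean log2 ratio of 0.06 and was above background on the arrays of GATA1 5-13 only, while COL4A1 was above background nowhere.

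COL5A2, a chain of a fibril-initiating collagen, had log2 ratios of 0.17, 0.15, 0.13 and 0.25 with probe A_23_P10391. Its brighter probe A_23_P33196 had 0.10 and -0.03 in GATA1 5-13 and 0.39 and 0.31 in GATA1 4-14. The mean log2 ratios of these other 2 probes, the brighter and a dim one, were 0.19 and -0.02. COL27A1, another fibrillar collagen, gave different answers by probe. Probe A_23_P158096 had log2 ratios of 1.25 and 1.20 in GATA1 4-14, 233% of GATA1 Neg, and was above background in neither RNA in GATA1 5-13. Probe A_24_P363896, which lies 783 bases away on hg18 and was called above background in every channel, had log2 ratios of 0.08, -0.03, 0.03 and -0.02. COL12A1, a fibril-associated collagen, had log2 ratios of 0.54 and 0.65 in GATA1 5-13, where GATA1 Neg was not well above background, so the clone was at least 1.46-fold higher. COL21A1 was above background on 1 array of the same clone, which was at least 1.16-fold higher. The chains of the main collagens of connective tissue, COL1A1, COL1A2 and COL3A1, were above background in neither RNA on any array.

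How many members could be measured differed by family. In GATA1 5-13, both RNAs were well above background on both arrays for 55% of the integrin probes, 21.5% of the collagen probes and 25% of the laminin probes, against 59.6% of all probes. The shares in GATA1 4-14 were 50%, 21.5% and 25%, against 59%. By gene, 15 of 26 integrins, 11 of 40 collagens and 4 of 12 laminins had a probe above background in both RNAs on all 4 arrays, while 8, 21 and 5 genes had none above background in either RNA on any array. Probes above background in the knockdown RNA only were found for 4 collagen probes in GATA1 5-13, 6.15% of that family beside 1.6% of the whole array, and for 0 member probes in GATA1 4-14, beside 0.688%. They belonged to COL12A1, COL21A1, COL24A1 and COL4A5, and 3 of the 4 passed on 1 array alone. The reverse, above background in GATA1 Neg only, held for probes of ITGAL, COL11A1 and LAMA1 in GATA1 5-13 and of ITGA2 and LAMA3 in GATA1 4-14, beside 1.27% and 1.56% of the whole array. Over the 70 member probes above background nowhere, the clone means lay between -0.22 and 0.19, so the probes beyond this range came from the other 55.

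**Figure D4:**
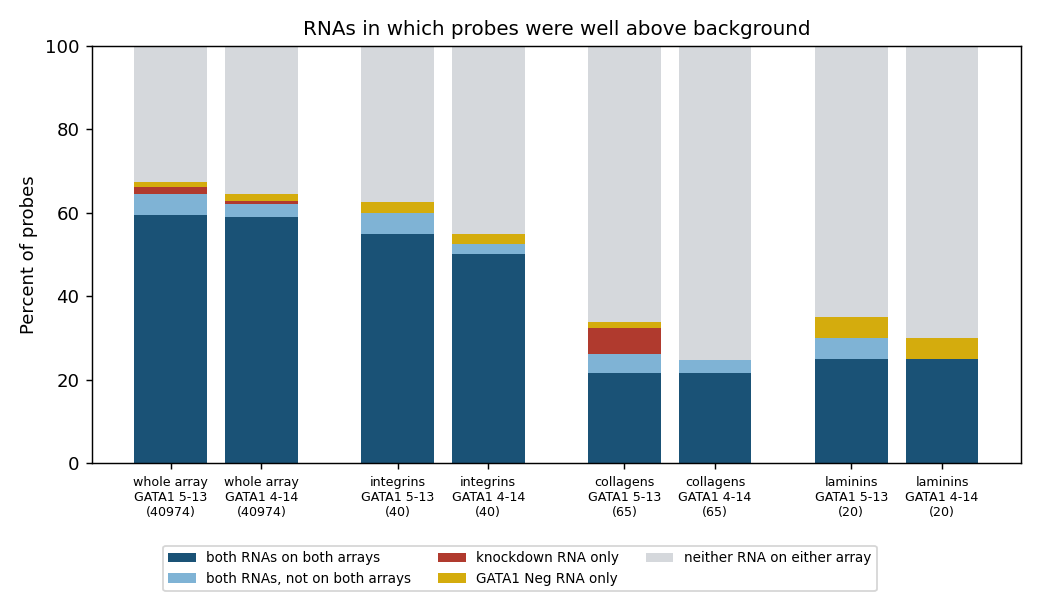
Percent of probes (vertical axis) by the RNAs in which they were well above background in each clone, for the whole array and the 3 families, with the number of probes in brackets. Of the collagen probes, 66.2% in GATA1 5-13 and 75.4% in GATA1 4-14 were above background in neither RNA, of the laminin probes 65% and 70%, and of all probes 32.5% and 35.6%.

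Over all probes, of which most collagen and laminin ones were dim, none of the 3 family medians stood far from 0. The median log2 ratio of the 40 integrin probes was -0.03 in GATA1 5-13 and -0.02 in GATA1 4-14. The collagen medians were 0.03 and 0.0048, and the laminin medians -0.02 and 0.02. The medians over all probes of the array were -0.002 and 0.00011. Among probes well above background in both RNAs on all 4 arrays, the laminins stood higher, with medians of 0.32 and 0.38 over 4 probes. That filter leaves out the LAMA3 and LAMB3 probes that lay below 0 on all 4 arrays. With the same filter, medians were -0.10 and -0.04 for 20 integrin probes and 0.03 and 0.03 for 11 collagen probes. Those of the array were -0.01 and -0.00042. Among the larger subfamilies, the medians of the 13 beta chain probes were -0.06 and -0.05, those of the 8 leukocyte alpha chain probes -0.05 and 0.02, and those of the 18 fibrillar collagen probes 0.03 and 0.01.

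ITGAM lies in a cluster of leukocyte alpha chains on chromosome 16, whose 7 probes span 904.4 kb of hg18, of which 2 were above background in both RNAs on all arrays. These are the ITGAM probe and the brighter ITGAL probe, which differed in GATA1 4-14, at -1.38 against 0.01 as clone means. LAMB1 and LAMB4 are also neighbours, and the second gene was above background nowhere.

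Genes that act with these families were read from lists of their partners. Of 28 integrin adaptors on the array with 49 probes, among them talins, kindlins, vinculin and focal adhesion kinase, 0 probes reached an unadjusted p of 0.005 in either direction, and the medians were -0.01 and -0.01. Of the 49 probes, 11 were below 0 on all 4 arrays and 4 above 0, beside 13.4% and 12.8% of all probes. Of the 24 enzymes and chaperones of collagen processing with 38 probes, 4 were lower at that p and 0 higher, or 10.5% of the probes beside 0.574% of all, while the median log2 ratios of the list were -0.06 and -0.01. They were PLOD2, a lysyl hydroxylase of collagen, with -0.79, -0.73, -0.96 and -0.87, LOXL3, a lysyl oxidase-like enzyme of collagen cross-linking, with -1.23, -0.97, -0.79 and -0.65, LOXL1 of the same enzyme family with -0.59, -0.43, -0.74 and -0.60, and ADAMTS3, a procollagen peptidase, with -0.50, -0.40, -0.56 and -0.54. All 4 were below 0 on every array and above background in both RNAs, and their adjusted p lay between 0.428 and 0.546 (limma, Benjamini-Hochberg).

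Of 17 other matrix proteins and ligands with 24 probes, and of 8 further receptors of collagen and laminin with 15 probes, 0 probes reached that p. FN1, fibronectin, was above background on at most 1 array of a clone. CD36, a receptor for collagen and other ligands, had mean log2 ratios of 0.17 and 0.21 in GATA1 5-13 and of -0.63 and -0.59 in GATA1 4-14 with its 2 probes.

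Markers of other cell types were read beside the matrix genes. Of 6 fibroblast markers, DCN, FAP and PDGFRB were above background in neither RNA on any array. LUM, a proteoglycan bound to collagen fibrils, had log2 ratios of 1.83 and 1.91 in GATA1 4-14, while in GATA1 5-13 it was above background in GATA1 Neg only, and at least 1.32-fold lower. PDGFRA, a growth factor receptor, had log2 ratios of 0.09, 0.22, 0.35 and 0.36 with the probe A_23_P300033 that was above background, at an unadjusted p of 0.0459 and an adjusted p of 0.668 (limma, Benjamini-Hochberg). THY1, a surface glycoprotein, was above background with 0.03, -0.09, 0.00 and -0.05. Of 5 endothelial markers with 7 probes, CDH5 and CLDN5 were above background nowhere. Both probes of ESAM, an adhesion molecule that platelets also carry, were lower at the unadjusted p of 0.005 (limma). That is 28.6% of the probes of this list, beside 0.574% of all, and no probe of PECAM1 or TIE1 reached it. Of the 7 probes, 4 were below 0 on all 4 arrays, beside 13.4% of all probes. The ESAM probe A_23_P47410 had log2 ratios of -0.73, -0.94, -0.81 and -0.97, and A_24_P13190 of -1.09, -0.89, -1.09 and -0.94. Of the 5 erythroid markers with 8 probes and the 5 epithelial markers on the array with 9 probes, 0 probes reached that p. The part of these markers in the values of the matrix genes was not tested.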

How the data were processed

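Transcripts of integrins, collagens and laminins were measured in 2 Meg-01 clones with a GATA1 shRNA against GATA1 Neg on 4 two-colour Agilent arrays. For each array the deposited file is a Feature Extraction 9.5.3.1 report, in which probes are placed on hg18. Spot means and medians of the local background are intensities that the authors deposited as read, with no normalization. The log10 ratio of each spot, its error and the background calls (coded scores of 0 or 1) were deposited as that program gave them. The table of the whole series deposited by the authors repeats those log10 ratios with the clone always over the control (largest difference 4.97e-06).

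Intensities were corrected with normexp (offset 50), which makes ratios of dim probes smaller, and normalized by loess within each array in limma 3.58.1 (R 4.3.3, with version 1.17.8 of data.table). Control spots and 135 to 152 outlier spots of the 43376 per array had weight 0, and 0 spots were saturated. Spots of a probe were averaged, ratios were set as knockdown over control, and each clone's 2 arrays were averaged. Limma then tested whether the clones' mean differed from 0 (two-sided, Benjamini-Hochberg). Counts, medians and figures were made in Python 3.11.15 with pandas 2.3.3, numpy 2.4.6 and matplotlib 3.10.9. A probe counted as well above background where more than 50% of its spots were called so; 6 member probes had 10 spots, the others 1. Arrays give no counts, and their number limits the precision. No source names separate cultures for the 2 arrays of a clone, so their spread may be technical. The fit was tested on simulated data.

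The members, lists and tests were chosen with earlier results of these data known. Named were member probes with an unadjusted p of at most 0.005 (limma). Among probes of 1 sign on all 4 arrays and above background in the brighter RNA, up to 8 per family and direction were added. These had the largest absolute means. Probes at least 1.5-fold from GATA1 Neg on both arrays of each clone, in opposite directions in the clones, were also to be named (0 probes). LAMB1 and the other probes of these genes completed the choice. ITGA4, ITGA6, ITGAE, ITGAL, ITGAV, ITGB2, ITGB5, COL11A2, COL12A1, COL15A1, COL21A1, COL27A1, COL4A6, LAMC3 and the genes given as above background nowhere were chosen after their values were seen. The values of 1 member gene are not reported here, though it is in the counts. Of the 117 member probes with a RefSeq accession, 115 matched a current symbol. No annotation of hg18 was used here, so the exon or UTR under a probe is not given. Alternatives changed the background correction, the source and normalization of the ratios, the filter on dim probes, outlier spots, the moderation, the unit of replication, and left out each array.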

Additional observations from a re-analysis of the deposited data

Results flagged for a closer look

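Among the probes named above with both RNAs well above background on at least 1 array of each clone, 8 had both arrays of GATA1 5-13 on one side of 0 and both arrays of GATA1 4-14 on the other. With 1 averaged replicate per clone the difference between the clones was not tested for any of them. The count covers named probes only, some chosen after their values were seen, and its share over all probes was not counted. Other member probes had the same pattern, such as COL15A1 A_23_P112554 (0.22, 0.13, -0.12 and -0.21) and COL11A2 A_23_P42322 (-0.22, -0.17, 0.13 and 0.10). Among the 8, the member LAMC3 (A_23_P82979) had clone means of -0.49 and 0.58, a difference of -1.07 on the log2 scale. COL4A6 (A_23_P217379) had 0.45 and -0.06, a difference of 0.51. ITGA6 (A_23_P210176) had -0.18 and 0.15, a difference of -0.34, and ITGAV (A_23_P50907) had 0.14 and -0.05, a difference of 0.19, while both arrays of the second ITGAV probe did not share a sign in either clone. Outside the families, the CD36 probes A_23_P111583 and A_24_P925505 each had a difference of 0.80, and the ITGB3 probes A_23_P38519 and A_24_P318656 had differences of -0.32 and -0.36. LUM, LYZ, ITGB5 and the COL27A1 probe A_23_P158096 also had opposite signs, but an RNA was not well above background in 1 of the clones, so no difference is given.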

How the results depend on the processing

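The number of clones is the main limit: the test rests on 2 clones and 1 control RNA, and a dim probe has a ratio that depends on the background step. Array-wide, 0 probes passed the adjusted threshold, 1 with a filter on dim probes, 1 with an intensity trend and 0 to 1 without each array in turn. Treating the 4 arrays as 4 values gave 1240 calls without and 269 with the replicate block, and an error-weighted mean of the scanner ratios gave 3531. Of the members these 3 fits called 7, 3 and 16, and the filter, the trend and each array left out called 0. The replicate number is the dye orientation, and deviations of same-numbered arrays from the clone means correlated with 0.773. For ITGAM the adjusted p ranged from 5.04e-33 (error-weighted mean) to 0.569 (no background correction), for ITGB7 from 1.22e-13 to 0.569, for ITGBL1 from 7.76e-08 to 0.569, and for LAMB1 from 0.00211 to 0.634. Across 15 alternatives, 299 values of the 20 named probes kept their direction, and 19 of them passed the adjusted threshold. These probes had 1 sign on all 4 arrays. Alternatives that refit the same ratios or leave out an array could therefore not change their direction. The series-wide table repeats the scanner ratios, so these 2 alternatives are not separate checks. Beside those above, means that moved by over 1.5 times lay from -0.29 to -0.08 for ITGA2, -0.42 to -0.06 for ITGA9, -0.25 to -0.04 for ITGB4, -0.27 to -0.08 for COL18A1, -0.16 to -0.01 for COL20A1, 0.02 to 0.17 for COL4A2 and 0.06 to 0.41 for COL5A2.

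At the unadjusted p of 0.005, array-wide counts lower were 134 with the scanner ratios and with the series-wide table, 148 without background correction, 1021 with the replicate block, 1237 for 4 arrays and 1857 for the error-weighted mean, and counts higher were 754, 971 and 1772 in the last 3. Member probes lower numbered 0 with the scanner ratios and the series-wide table, 1 without background correction, 4 with the dim filter, the trend and the block, 6 for 4 arrays and 7 for the error-weighted mean. Member probes higher numbered 1 with the scanner ratios, the series-wide table, the dim filter, the trend, no background correction or any 1 array left out, 4 for 4 arrays and 9 for the error-weighted mean. The member left was LAMB1 with the scanner ratios and without background correction, and ITGBL1 with the dim filter, the trend or an array left out. Member probes at least 1.5-fold lower were 2 in each clone without background correction, and 7 in GATA1 5-13 with the scanner ratios or the series-wide table, which also gave 7 higher there. Those higher in GATA1 5-13 were 0 with median centring or without background correction and 2 without either of its arrays, and in GATA1 4-14 they were 1 with the dim filter and 0 without background correction.

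The family medians often moved by more than the difference between the arrays of a clone. With the scanner ratios or the series-wide table they were 0.00 in both clones for integrins, collagens and laminins. A scanner ratio of exactly 0 on all 4 arrays was found for 30 member probes. With the dim filter, integrins had -0.09 (GATA1 5-13) and -0.05 (GATA1 4-14), collagens 0.00 and 0.02, and laminins -0.03 and 0.27. Without background correction, integrins had -0.01 and 0.00, collagens 0.01 in GATA1 5-13 and laminins 0.00 in GATA1 4-14. Median centring gave 0.00 for integrins in GATA1 4-14, 0.04 and 0.02 for collagens and 0.05 for laminins in GATA1 4-14, and probes averaged by gene gave 0.01 for integrins in GATA1 4-14 and 0.03 and 0.02 for collagens. Leaving out an array gave medians of -0.06 to 0.00 for integrins, 0.01 to 0.03 for collagens and -0.03 to 0.04 for laminins. The cause of these moves was not tested.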

Other observations

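The array carries 11 further probes that it names by a transcript accession but describes as an integrin, collagen or laminin, and the naming rule did not take them. The one described as ITGBL1 (A_23_P408363) had log2 ratios of 0.59 and 0.56 in GATA1 5-13 and of 0.63 and 0.67 in GATA1 4-14, above background in both RNAs on all 4 arrays. The average was 0.61 ± 0.05 (SD, n = 2 clones), with an unadjusted p of 0.00163 and an adjusted p of 0.449 (limma, Benjamini-Hochberg), beside 0.57 for the named ITGBL1 probe on the same arrays. A probe described as ITGB2 (A_23_P430411) had clone means of -0.04 and 0.10, and was above background on 1 array in GATA1 Neg alone. A probe described as ITGA4 (A_24_P915464), above background in both RNAs on all arrays, had clone means of -0.24 and -0.07, and the named ITGA4 probe had -0.25 and -0.02. A probe described as ITGA2 (A_32_P26461) had a knockdown RNA that was well above background on no array. The probe described as LAMB1 (A_32_P149101) was above background in neither RNA.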
